A study of Mus musculus with 102 samples.

Results

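The genes described here carry the symbols of mitochondrial ribosomal proteins. They are the 77 rows of the authors' normalized table, of 18856 rows, whose mouse symbol begins with Mrpl or Mrps, goes on with a number and at most 1 letter, and carries no pseudogene suffix. Of the 77, 48 are Mrpl genes, named for the large subunit, and 29 are Mrps genes, named for the small subunit. The symbols do not always match the place of the protein: Mrps30 and Mrps18a encode proteins of the large subunit, and Mrps36 a component of the 2-oxoglutarate dehydrogenase complex. All were kept by symbol. All 77 are protein coding in GENCODE release M21, they lie on 17 chromosomes, and 11 of them are on chromosome 11. The choice was by symbol within that table. Mrpl53, which has the same form of symbol, is in the raw counts alone with 0 to 10 counts per sample, so it is not among the 77.

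Mitochondria keep a small genome of their own, and the proteins it encodes are made inside the organelle by a dedicated ribosome. Its rRNAs come from mitochondrial DNA, whereas every one of its proteins is encoded in the nucleus, made in the cytosol and imported. The products of this ribosome are core subunits of the respiratory chain and of ATP synthase, which are assembled with nuclear-encoded partners. Microglia, the resident macrophages of the central nervous system, change their use of oxidative metabolism when they are activated.

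RNA-seq was done on microglia sorted by flow cytometry from the lumbar spinal cord, with poly(A)-primed, PCR-amplified cDNA. Mice were labelled wild type (WT) or ABC-imKO, called KO below, with the genotype Abca1fl/fl Abcg1fl/fl Cx3cr1-CreERT2, in which an inducible Cre under the Cx3cr1 promoter can delete the cholesterol exporters Abca1 and Abcg1. Within each genotype there were naive mice, mice given intraperitoneal cisplatin on days 1 and 3 and intrathecal saline on day 7, and mice given the same cisplatin and intrathecal AIBP, an apolipoprotein A-I binding protein, on day 7. The 17 numbered samples were 3 each of WT naive (1 to 3), WT cisplatin saline (4 to 6), KO naive (1 to 3), KO cisplatin saline (4 to 6) and KO cisplatin AIBP (7 to 9), and 2 of WT cisplatin AIBP (7 and 9). Naive mice had no injection, so each comparison of cisplatin with naive also holds the intrathecal injection. Age, sex, strain, tamoxifen dosing and whether the WT mice carried floxed alleles or Cre are not stated in the labels. Nor is it stated whether each numbered sample came from 1 mouse or several, so the p-values reflect only how these samples vary.

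Levels are counts per 1000000 counts of the library (CPM), scaled by edgeR, and a gene was called when the adjusted p of edgeR's quasi-likelihood test, over 20461 genes, was below 0.05. Summed over its 6 runs, a sample held 45.1 to 76.6 M counts (M, 1000000 counts). Of the floxed genes, Abcg1 was lower in every KO naive sample (41.6 to 66.4 CPM) than in every WT naive sample (91.7 to 160 CPM), a difference that did not pass the test (log2 fold change -1.13 ± 0.32 SE, adjusted p = 0.789). After cisplatin its genotypes overlapped (KO minus WT 0.07 with saline and -0.21 with AIBP). Abca1 overlapped in naive mice (66.1 to 105 against 87.3 to 114 CPM, -0.30 ± 0.28, adjusted p = 0.947) and after cisplatin (0.11 and 0.28). Whole-gene counts also read undeleted exons, and KO is used only as the samples' label. All 8 microglial markers were present, and their summed level was 46300 to 53600 CPM in WT naive, 34600 to 45600 in KO naive, 23500 to 31500 in WT cisplatin saline, 34700 to 35900 in WT cisplatin AIBP, 17900 to 21000 in KO cisplatin saline and 22500 to 29300 in KO cisplatin AIBP. The sum includes Cx3cr1, the gene whose promoter drives the Cre in KO. Its level was 9990, 10700 and 9350 CPM in WT naive 1, 2 and 3 against 3400, 4290 and 4870 CPM in KO naive 1, 2 and 3. No sum was taken without it, and the cause of the difference was not tested. In sorted bulk samples, fewer cells of a type and less RNA per cell cannot be told apart.

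All 77 genes were detected in every sample and all passed the filter on low counts, the lowest value being 248 raw counts. Their mean levels ran from 8.27 to 135 CPM with a median of 45.2 CPM. Per kilobase of transcript (the longest coding GENCODE transcript of each gene), the 3 highest levels in WT naive were those of Mrpl42 at 124 ± 19.2, Mrpl52 at 113 ± 4.63 and Mrps15 at 90.0 ± 11.2 CPM per kilobase (SD, n = 3). The 3 lowest were those of Mrps25 at 3.05 ± 0.359, Mrps34 at 3.92 ± 1.27 and Mrps5 at 4.90 ± 1.67 CPM per kilobase. Proteins that sit once in the same particle thus had mRNA levels per length that differed widely, and the mRNA of Mrps25 was counted over a transcript of 6073 bases against 418 bases for Mrpl52. Within a group, the median SD of log2 CPM over members was 0.319 between samples, close to 0.341 for all 6791 genes at 20 CPM or more.

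The genes as a set took a larger share of the counts in most cisplatin samples. Their summed share was 0.325, 0.287 and 0.285% of counts in WT naive 1, 2 and 3, and 0.354, 0.563 and 0.450% in WT cisplatin saline 4, 5 and 6. It was 0.466 and 0.448% in WT cisplatin AIBP 7 and 9. By this unscaled share all 5 WT cisplatin samples lay above the 3 WT naive samples, but in CPM scaled by edgeR sample 4, with a summed level of 3480 CPM, lay within the WT naive range of 2860 to 3490 CPM. The KO naive samples gave shares of 0.283, 0.278 and 0.315%. With cisplatin, KO samples gave 0.447, 0.532 and 0.461% under saline and 0.381, 0.522 and 0.475% under AIBP. By share all 6 KO cisplatin samples lay above the 3 KO naive samples, but in scaled CPM KO cisplatin AIBP 7, at 3430 CPM, lay within the KO naive range of 2660 to 3560 CPM. Set against WT naive means on the log2 scale, the median member lay at 0.17, 0.03 and -0.14 in WT naive 1, 2 and 3 and at 0.16, 0.75 and 0.53 in WT cisplatin saline 4, 5 and 6. In KO it lay at -0.20, -0.11 and 0.20 in naive 1, 2 and 3 and at 0.19, 0.62 and 0.65 in cisplatin AIBP 7, 8 and 9. WT cisplatin saline 4 and KO cisplatin AIBP 7 were thus not above the highest naive sample of their genotype.

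**Figure D1:**
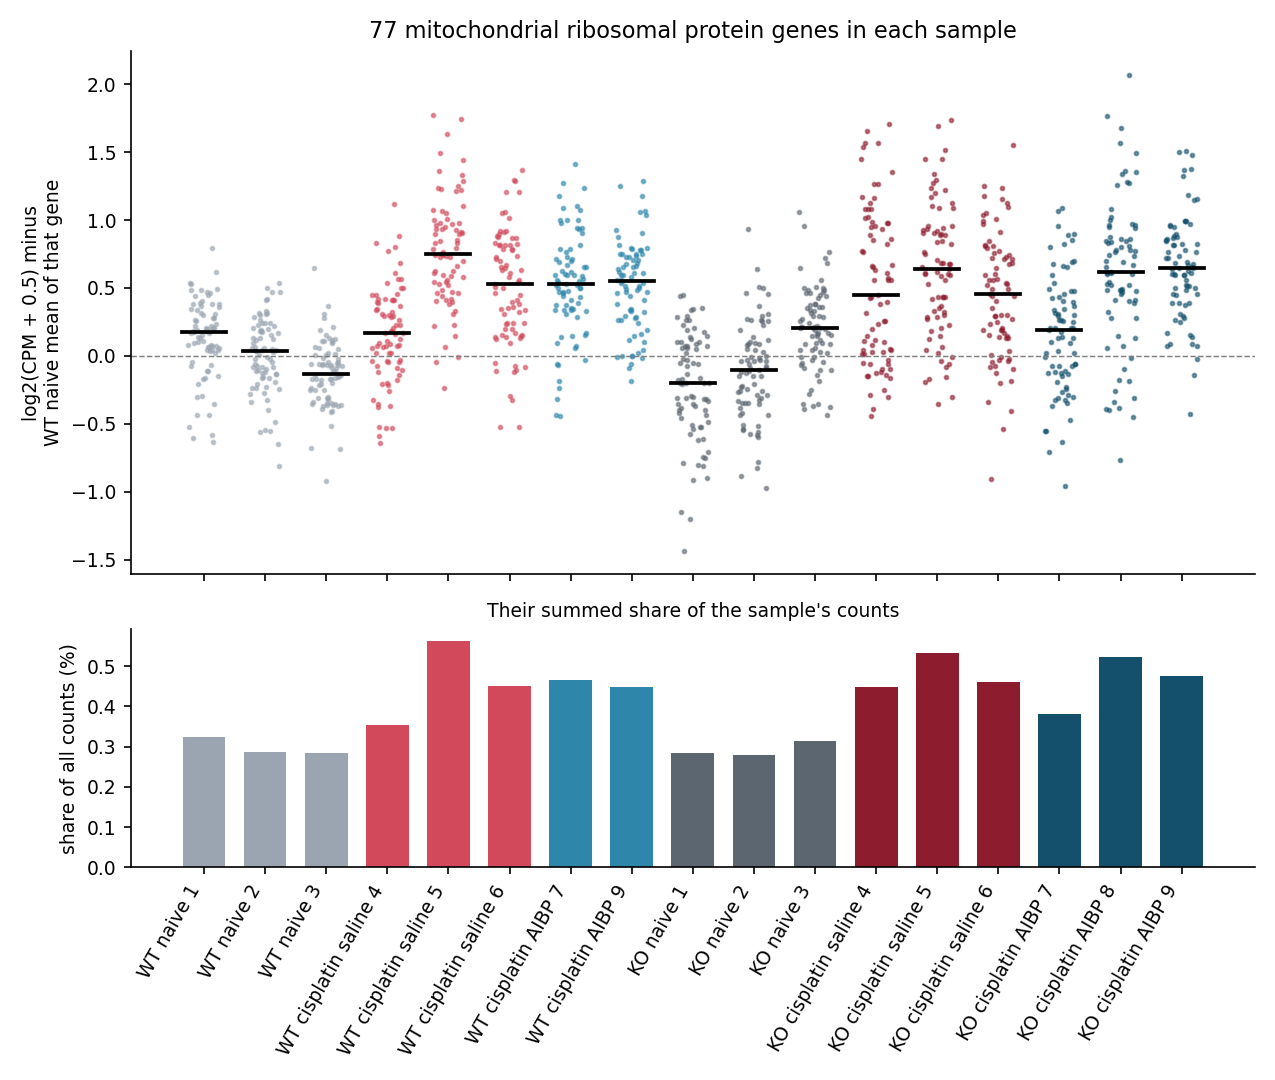
Upper panel: each point is 1 of the 77 genes in 1 sample, as log2(CPM + 0.5) minus the mean of that gene in WT naive, with a bar at the median; lower panel: the genes' summed share of the sample's counts in percent. WT cisplatin saline 4 (median 0.16) and KO cisplatin AIBP 7 (median 0.19) lie near the naive samples, and the other 9 cisplatin samples lie higher.

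After cisplatin and saline, WT microglia had higher levels of Mrpl20, Mrpl52, Mrps25 and Mrps21 than WT naive microglia, and no member passed the test in the other direction. The 4 called members are 5.19% of the 77. Over all genes 2.91% were called in either direction, 1.95% higher and 0.953% lower, and among the 8570 genes at a mean of 10 CPM or more 4.31% were called higher, so the share of called members was near that of genes at like levels. The median log2 fold change was 0.49 over the members and -0.01 over all genes tested, and 71 of 77 members had a positive value. At an unadjusted p below 0.05, 29 members were higher and 0 lower. Shares of all genes with a positive value or at that cut are not given, here or in the comparisons below. The 3 cisplatin saline samples all exceeded the 3 naive samples for 24 members (31.2%), against 12% of all genes and 14% of genes at 10 CPM or more. Members ranged from Mrps9 at -0.46 to Mrpl20 at 1.40.

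Mrpl20 (ENSMUSG00000029066, chr4:155802878-155809975 on GRCm38), a large subunit protein with a bacterial counterpart, measured 42.5, 25.2 and 30.7 CPM in the WT naive samples against 70.0, 111 and 79.5 CPM in WT cisplatin saline. Every cisplatin sample was above every naive sample, and the log2 fold change was 1.40 ± 0.26 (SE, adjusted p = 0.00959). Mrpl52 (ENSMUSG00000010406, chr14:54426909-54429756), a large subunit protein that bacteria lack, measured 48.5, 48.3 and 45 CPM in the WT naive samples against 68.8, 113 and 99.1 CPM in WT cisplatin saline. Its groups did not overlap either, with sample 4 the lowest of the cisplatin samples (log2 fold change 0.99 ± 0.20, adjusted p = 0.0152).

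Mrps25 (ENSMUSG00000014551, chr6:92169525-92184033), a small subunit protein particular to mitochondria, measured 21, 16.9 and 17.7 CPM in the WT naive samples against 34.5, 44.2 and 43.2 CPM after cisplatin and saline. The groups were apart (1.13 ± 0.23, adjusted p = 0.016). Part of the Mrps25 exon sequence lies opposite exons of Nr2c2, and the strand setting of the authors' counting is not given in the sources used here, so its count is uncertain. Mrps21 (ENSMUSG00000054312, chr3:95862634-95871519), the homologue of a small bacterial protein of the same subunit, measured 29.4, 28.6 and 24.9 CPM in the WT naive samples against 41.1, 46 and 48 CPM after cisplatin and saline (0.70 ± 0.16, adjusted p = 0.0281). Its groups did not overlap.

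How many members passed in WT depended on single samples. Without WT naive 1, 2 or 3 the number called was 2, 1 or 1, and without WT cisplatin saline 4, 5 or 6 it was 12, 0 or 1. With WT cisplatin saline 4 as the only saline sample, 0 members were called and the median log2 fold change was 0.15.

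In KO, cisplatin and saline came with higher levels of 18 members and lower levels of 0. These were 12 of the large subunit, namely Mrpl52, Mrpl20, Mrpl33, Mrpl57, Mrpl23, Mrpl42, Mrpl54, Mrpl13, Mrpl30, Mrpl36, Mrpl40 and Mrpl11, and 6 of the small subunit, namely Mrps14, Mrps21, Mrps28, Mrps16, Mrps18c and Mrps24. The 18 are 23.4% of the members. The background was 4.41% of all genes called in either direction, 2.42% higher and 1.99% lower, and 5.52% called higher among genes at 10 CPM or more. The median log2 fold change was 0.52 over members and -0.04 over all genes, 70 of 77 members had a positive value, and 34 were higher at an unadjusted p below 0.05 with 0 lower. For 40 members (51.9%) all 3 cisplatin saline samples exceeded all 3 naive samples, against 12% of all genes and 17.2% of genes at 10 CPM or more.

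Mrpl52 had the smallest p of the 77 in KO, at 41.1, 50.3 and 54.2 CPM in naive and 130, 130 and 113 CPM after cisplatin and saline, so that each treated sample held more than double the highest naive level (log2 fold change 1.35 ± 0.20, adjusted p = 0.00166). Mrpl20 measured 41, 31.4 and 39.3 CPM in KO naive against 106, 108 and 95.2 CPM after cisplatin and saline (1.47 ± 0.26, adjusted p = 0.00471). For both, treated and naive samples lay far apart.

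Among small subunit genes, Mrps14 was at 59.8, 52.9 and 78.7 CPM in KO naive against 126, 147 and 149 CPM after cisplatin and saline (1.14 ± 0.22, adjusted p = 0.00783). Mrps28 had the largest value, 1.51 ± 0.37 (adjusted p = 0.0293), from 11.9, 15.6 and 31.7 CPM in naive to 64.0, 59.1 and 46.1 CPM. Its 3 naive samples differed by more than 2-fold among themselves, yet all lay below the treated ones. Mrps21 had a value of 0.73 ± 0.16 (adjusted p = 0.0171), from 29, 33 and 33.1 CPM to 54.7, 54 and 48.8 CPM, again with no overlap.

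Mrpl33 (ENSMUSG00000106918, chr5:31596935-31664384) encodes a short protein of the large subunit with a bacterial counterpart. Its levels were 12, 11.5 and 14.3 CPM in KO naive against 33.8, 28.4 and 28.3 CPM after cisplatin and saline (1.26 ± 0.24, adjusted p = 0.00797). In WT they were 15.1, 18.7 and 18.9 CPM for naive samples against 15.1, 23.4 and 16.2 CPM after cisplatin and saline, groups that overlapped (0.05 ± 0.23, adjusted p = 0.947). Mrpl57, a small large-subunit protein particular to mitochondria, went from 26.2, 27.6 and 36.1 to 74.0, 88.7 and 61.2 CPM in KO (1.31 ± 0.26, adjusted p = 0.0107).

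The other members named by rank of p in KO had log2 fold changes of 0.91 for Mrpl23 (adjusted p = 0.0202), a protein at the exit of the peptide tunnel, 1.00 for Mrpl42 (0.0231), 1.38 for Mrpl54 (0.0268), 1.19 for Mrpl13 (0.0273) and 1.01 for Mrpl30 (0.0306). For each of these 5, every cisplatin saline sample was above every naive sample in KO. Mrpl13, Mrpl36, Mrps18c and Mrps24 share exon sequence with another tested gene, on the opposite strand for the first 2 and on the same strand for the last 2, so their counts are uncertain. In all, 29 of the 77 members share exon sequence with a tested gene, 25 on the opposite strand, and for 7 the other gene has the higher level, which touches the medians of the set as well. The number called was 5 without KO naive 1, 5 without KO naive 2, 9 without KO cisplatin saline 4 and 4 without KO cisplatin saline 5.

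**Figure D2:**
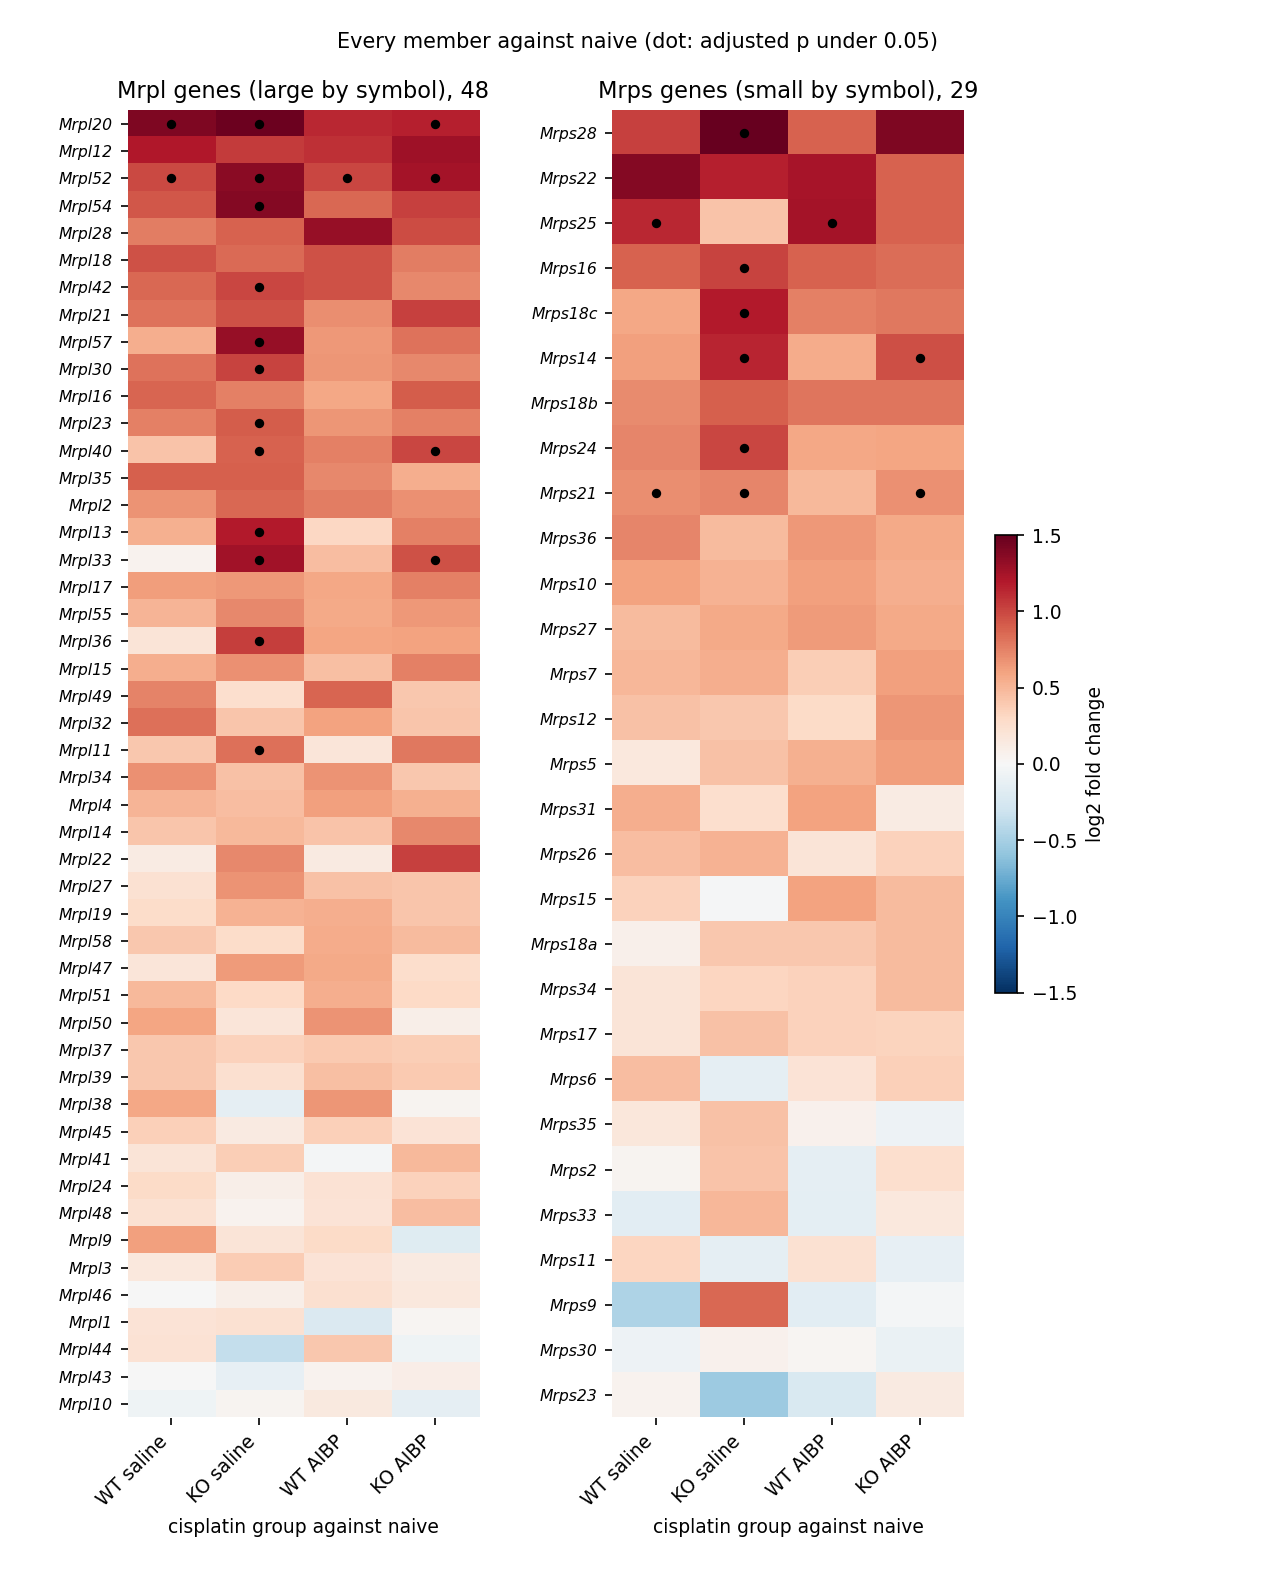
Log2 fold change of each of the 77 genes in the 4 cisplatin groups against naive of the same genotype, by symbol (Mrpl left, Mrps right), ordered by the mean of the 4 values, with a dot where the adjusted p was below 0.05. Most cells are above 0, and the dots are most frequent in the KO saline column, which holds 18.

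With AIBP in place of saline, the comparison with naive uses the same naive samples, so the values below are not independent of those above. In WT, Mrps25 and Mrpl52 were called higher and 0 members lower. That is 2.6% of the members, beside 1.25% of all genes called in either direction, 1.06% higher, 0.191% lower, and 2.42% called higher among genes at 10 CPM or more, so it was near the background. Mrps25 stood at 45.4 and 42.4 CPM in WT cisplatin AIBP (1.25 ± 0.25, adjusted p = 0.0264) and Mrpl52 at 91.3 and 97.4 CPM (1.00 ± 0.21, adjusted p = 0.0363). In both cases the AIBP samples were above all 3 naive samples. The median log2 fold change over members was 0.56 (all genes -0.07), 71 of 77 values were positive, 26 members were higher at an unadjusted p below 0.05 and 0 lower, and for 51 members (66.2%) the 2 AIBP samples exceeded the 3 naive samples, against 17% of all genes and 22.9% of genes at 10 CPM or more. With any 1 of the 5 samples left out, 0 members were called.

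In KO with AIBP, 6 members were called higher and 0 lower: Mrpl52, Mrpl20, Mrps14, Mrpl40, Mrps21 and Mrpl33. They are 7.79% of the members, beside 2.68% of all genes called in either direction, 1.81% higher, 0.87% lower, and 4.17% called higher among genes at 10 CPM or more. Mrpl52 stood at 101, 141 and 105 CPM (1.25 ± 0.20, adjusted p = 0.0043) and Mrpl20 at 58.3, 110 and 84.1 CPM (1.17 ± 0.25, adjusted p = 0.0237). Both lay above all naive samples, with sample 7 the lowest of the treated ones.

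Mrps14 stood at 105, 139 and 131 CPM in KO cisplatin AIBP (0.97 ± 0.21, adjusted p = 0.0261). Mrpl40, a large subunit protein particular to mitochondria, rose from 28, 36.1 and 39.9 CPM in KO naive to 60.8, 73.1 and 74.6 CPM (1.00 ± 0.23, adjusted p = 0.0316). Mrps21 stood at 49.2, 53.8 and 49 CPM (0.68 ± 0.16, adjusted p = 0.0359) and Mrpl33 at 27.8, 24.7 and 21.3 CPM (0.96 ± 0.24, adjusted p = 0.044). None of these groups overlapped with KO naive. The median over members was 0.54 (all genes -0.07), 70 of 77 values were positive, 35 members were higher at an unadjusted p below 0.05 and 0 lower, and 27 members (35.1%) had groups that did not overlap, against 10.1% of all genes and 13.3% of genes at 10 CPM or more. Without KO naive 1 or 2 the number called was 1 each, without KO cisplatin AIBP 7 it was 15, and without KO cisplatin AIBP 8 or 9 it was 1 each.

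Mrpl52 was the only member called in all 4 comparisons. Mrpl20 and Mrps21 were called in 3, 4 members in 2, 12 members in 1 and 58 members in 0, and 60 members had a positive value in all 4. In WT cisplatin AIBP, Mrpl20 stood at 76.1 and 67.2 CPM (1.13 ± 0.28, adjusted p = 0.0636) and Mrps21 at 36.9 and 40.6 CPM (0.49 ± 0.17, adjusted p = 0.218), both above all 3 naive samples.

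Some members with large values passed nowhere. Mrpl12 and Mrps22 are given here, with Mrps23 from the low end, all chosen after their values were seen. Mrpl12, a protein of the stalk that binds translation factors, had 23.0, 25.8 and 18.6 CPM in WT naive against 29.5, 70.2 and 55.1 with saline and 48.3 and 47.2 with AIBP, and in KO 25.8, 23.9 and 31.3 CPM against 50.4, 64.7 and 53 with saline and 35.6, 95.2 and 64.1 with AIBP. In each of the 4 comparisons the groups did not overlap, but the treated samples varied, and log2 fold changes of 1.05 to 1.27 had adjusted p of 0.0621 to 0.189 by edgeR. Mrps22, of the small subunit, had 13.1, 9.72 and 12.1 CPM in WT naive against 20.5, 39.8 and 30.6 CPM with saline, which did not overlap (1.38 ± 0.35, adjusted p = 0.0509). At the other end, Mrps23 had 32.1, 24.9 and 35 CPM in KO naive against 20.5, 29.6 and 13.2 CPM with saline. These overlapped, and its value of -0.54 ± 0.38 was the lowest of the 77 in that comparison (adjusted p = 0.485).

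**Figure D3:**
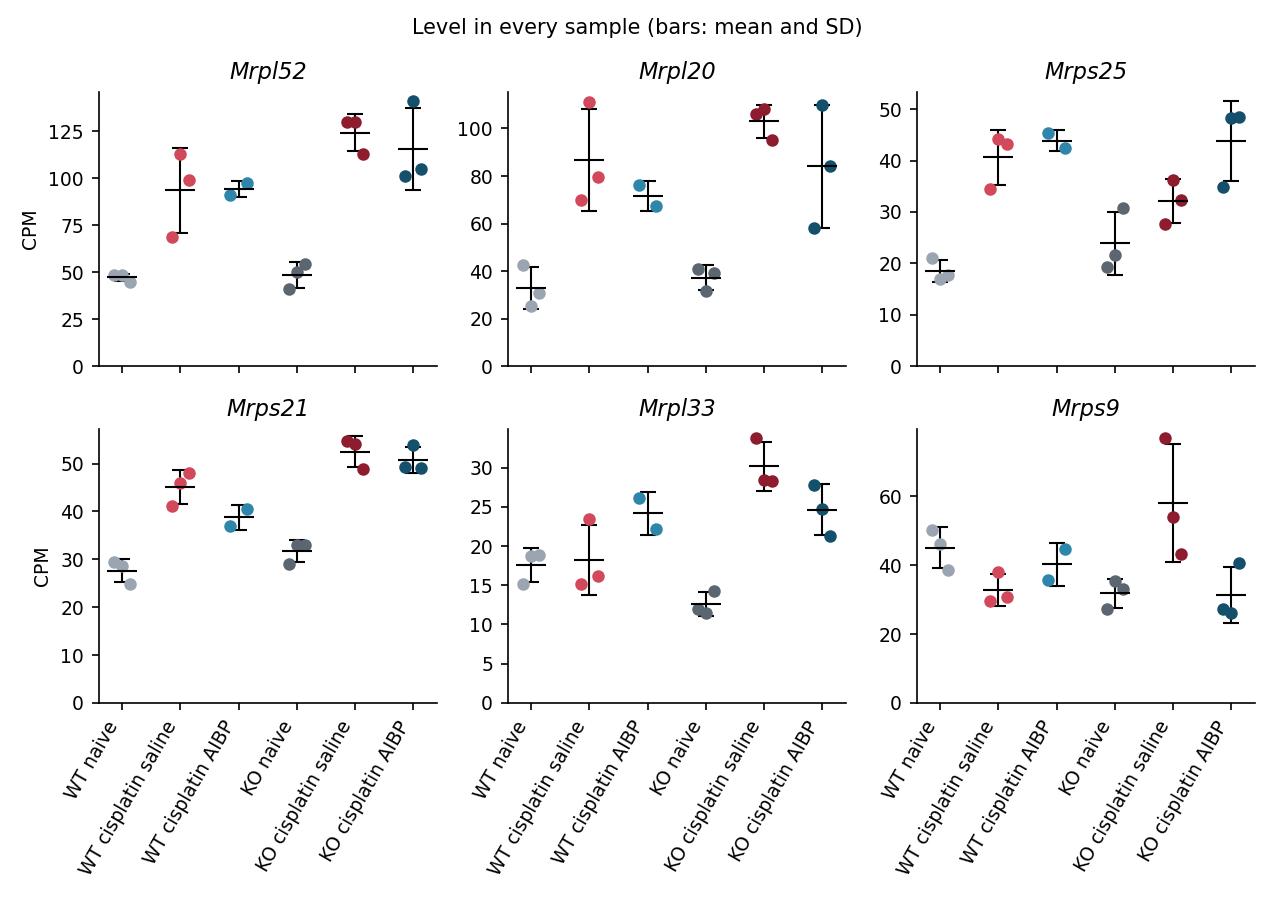
CPM of 6 members in every sample by group, with the mean and SD as bars. Mrpl52, Mrpl20 and Mrps21 were above naive in every cisplatin sample of both genotypes, Mrps25 in every cisplatin sample of WT, Mrpl33 in every cisplatin sample of KO, and Mrps9 was highest in KO cisplatin saline 4 at 76.9 CPM.

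By symbol, the 48 Mrpl genes had medians of 0.51, 0.64, 0.57 and 0.54 in WT saline, KO saline, WT AIBP and KO AIBP against naive, and the 29 Mrps genes had medians of 0.46, 0.48, 0.49 and 0.54. Of the Mrpl genes 2, 12, 1 and 4 were called, and of the Mrps genes 2, 6, 1 and 2, all of them higher. By the number in the symbol, 44 members count as conserved with bacteria and 33 as particular to mitochondria, a split that misplaces single genes such as Mrps24, which has a bacterial counterpart. The conserved group had medians of 0.52, 0.67, 0.53 and 0.64, and the other group 0.46, 0.37, 0.57 and 0.41. Neither split was tested for a difference.

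AIBP in place of saline after cisplatin gave 0 called members in either genotype by edgeR, and also 0 by DESeq2 and by limma-voom. The background was 0% of all genes in WT and 0.00977% in KO. The median over members was 0.01 in WT and -0.05 in KO. In WT 0 members reached an unadjusted p below 0.05. In KO 1 did, the small subunit gene Mrps9, at 76.9, 54 and 43.3 CPM with saline and 27.2, 26.1 and 40.6 CPM with AIBP. These groups did not overlap, but the difference of -0.89 ± 0.25 did not pass the test (adjusted p = 0.706).

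Between the genotypes, 0 members were called in naive mice, after cisplatin and saline, or after cisplatin and AIBP by edgeR, DESeq2 or limma-voom, with backgrounds of 0.00489, 0.044 and 0% of all genes. Medians of KO against WT were -0.02, 0.02 and -0.03, and 3, 3 and 1 members had an unadjusted p below 0.05. Where KO had more called members than WT after cisplatin and saline (18 against 4), the difference between the effects was tested as an interaction. There 0 members passed with edgeR (0% of all genes) or limma-voom, 4 had an unadjusted p below 0.05, and the median difference was 0.10.

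The 3 members with the smallest p in that interaction were Mrps9, Mrpl33 and Mrpl36. Mrps9 had 50.3, 46.2 and 38.6 CPM in WT naive against 29.5, 38 and 30.9 CPM with saline, and 27.2, 35.4 and 33 CPM in KO naive against the KO saline levels above. Saline samples were thus below naive in WT and above naive in KO, and the effect in KO minus that in WT was 1.32 ± 0.35 (edgeR adjusted p = 0.585). For Mrpl33 it was 1.21 ± 0.33 (0.607) and for Mrpl36 0.85 ± 0.36 (0.615). DESeq2 called Mrps9 and Mrpl33 here, each with an adjusted p of 0.042. For the AIBP effect after cisplatin, KO minus WT, 0 members passed with any of the 3 tools, 2 had an unadjusted p below 0.05, and Mrps9 (-1.19 ± 0.37, adjusted p = 0.774), Mrpl36 (-0.84, 0.785) and Mrpl33 (-0.70, 0.806) came first.

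**Figure D4:**
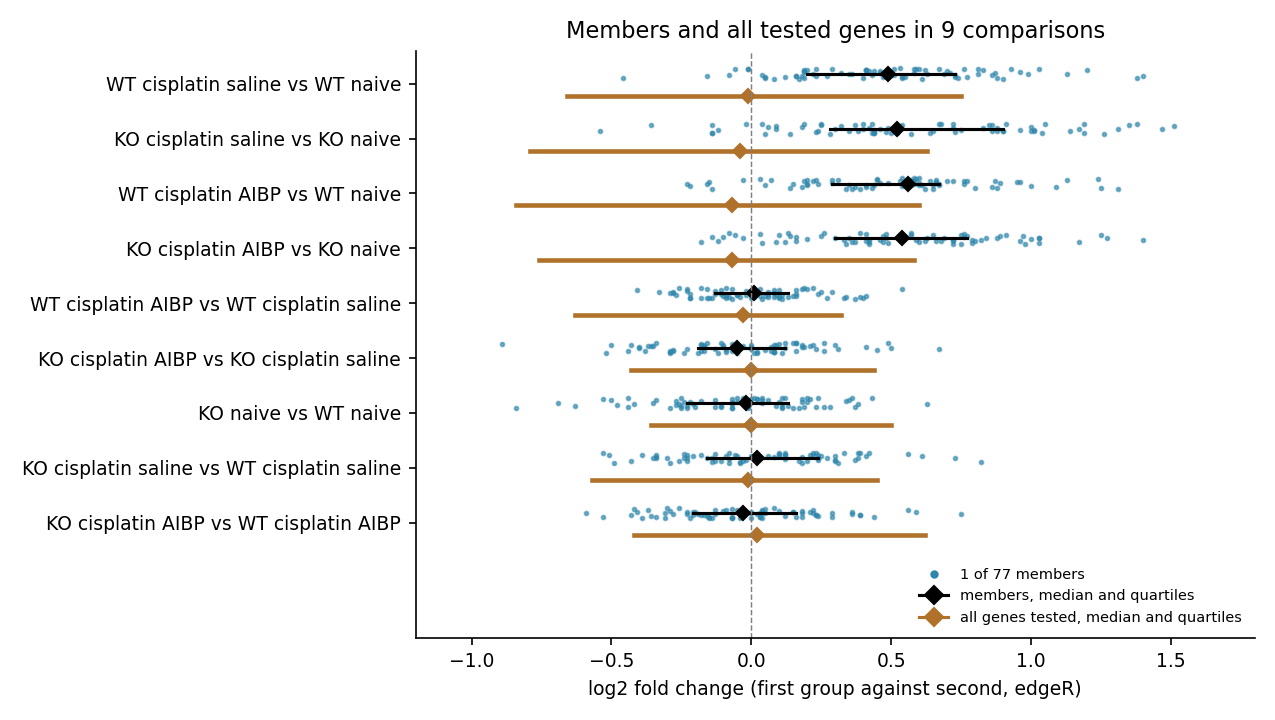
Log2 fold change of each of the 77 genes (points) in 9 comparisons, with the median and quartiles of the members in black and of all genes tested in brown. The members' medians are 0.49 to 0.56 in the 4 comparisons with naive and -0.05 to 0.02 in the other 5.

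The promoters of the members were read for letters of 4 elements known from genes of mitochondrial proteins. RefSeq windows on GRCm38.p6 (250 bases before to 50 after the gene's start) were found for 68 of the 77. Each element was searched on both strands: ACTTCCGG, the core of the ETS element bound by GABPA, GCGCATGCG for NRF1, AAGATGGC for YY1 and GGGGCGGGG for Sp1. Letters of the first were in 17.6% of member genes and 8.74% of tested protein-coding genes, counting any window of a gene. By single windows they were in 16.2% of the members' windows and 3.89% of all promoters in the table. By gene, the shares of members and of tested protein-coding genes were 10.3 and 4.02% for NRF1, 17.6 and 5.06% for YY1, and 19.1 and 23.9% for Sp1. By window, those of members and of all promoters were 9.46 and 1.75% for NRF1, 16.2 and 2.75% for YY1, and 20.3 and 11.4% for Sp1. At least 1 element was in 54.4% of members and 36.7% of tested protein-coding genes. Such matches are descriptions and not binding sites.

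Mrpl52, the member called in all 4 comparisons, holds an ETS match at its start, shown in capitals in the window at chr14:54426659-54426928 on the plus strand, whose last 20 bases are transcribed.
Mrpl52: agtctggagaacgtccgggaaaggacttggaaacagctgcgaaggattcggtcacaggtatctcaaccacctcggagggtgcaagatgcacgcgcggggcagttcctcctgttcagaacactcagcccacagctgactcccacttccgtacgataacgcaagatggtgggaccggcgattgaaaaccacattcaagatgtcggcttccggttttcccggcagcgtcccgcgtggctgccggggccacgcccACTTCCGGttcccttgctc

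Of the 19 members called in any comparison 16 had a window, and 8 of these held an element. The others with an ETS or YY1 match are shown with up to 10 bases on each side, the match in capitals and 5′ to 3′ on the gene's strand, to let the elements be compared between genes that were called. They lie at chr5:31613938-31613965 (Mrpl33, plus strand), chr5:100798592-100798619 (Mrps18c, plus), chr10:95501905-95501932 (Mrpl42, minus), chr11:5707652-5707675 (Mrps24, minus) and chr13:73330969-73330996 (Mrpl36, plus).
Mrpl33: cgcgcatgccCCGGAAGTagtcgttgag
Mrps18c: gggtcacgtgACTTCCGGcccgggaagc
Mrpl42: agattgaagcAAGATGGCgagcgcgcgg
Mrps24: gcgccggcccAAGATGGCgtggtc
Mrpl36: gtgaccttacGCCATCTTtcttcctggc
Mrpl33 and Mrpl36 carry the elements in reverse complement. Mrpl23 and Mrpl40 held the Sp1 letters, as did Mrps24 at a second place. With the ETS letters the members' medians in WT saline, KO saline, WT AIBP and KO AIBP against naive were 0.46, 0.62, 0.50 and 0.52, and without them 0.48, 0.48, 0.56 and 0.54. For NRF1 they were 0.62, 0.42, 0.45 and 0.42 with the letters and 0.46, 0.52, 0.56 and 0.54 without, for YY1 0.49, 0.48, 0.59 and 0.56 with and 0.46, 0.51, 0.55 and 0.51 without, and for Sp1 0.50, 0.54, 0.58 and 0.63 with and 0.46, 0.50, 0.56 and 0.47 without. These differences were not tested.

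Many members share their start region with a neighbour. A protein-coding gene on the opposite strand began within 1000 bases for 33 members (42.9%), against 15.9% of the 13668 tested protein-coding genes. The 32 partners tested had medians of 0.16, 0.14, 0.25 and 0.25 in the 4 comparisons with naive, while the members with a partner had 0.44, 0.44, 0.53 and 0.49 and those without 0.53, 0.52, 0.57 and 0.54. Mrpl46 and Mrps11 are each other's partner, so both stand among the partners as well as the members. Of the 32 partners 4, 2, 1 and 2 were called, beside 2.91, 4.41, 1.25 and 2.68% of all genes in either direction. They were chosen for naming after their values were seen: Psma2 beside Mrpl32 and Ndufs6 beside Mrpl36 in WT saline and in both KO comparisons, Tcp1 beside Mrpl18 in both WT comparisons, and Pnpla7 beside Mrpl41, which was lower in WT saline. Ndufs6, a subunit of respiratory complex I whose exons overlap those of Mrpl36, had a log2 fold change of 1.20 in KO saline (adjusted p = 0.00352).

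Genes that work with the mitochondrial ribosome fell into unlike groups. The 5 tested mitoribosomal proteins with other symbols (Dap3, Ptcd3, Aurkaip1, Chchd1 and Gadd45gip1) had medians of 0.92, 0.83, 1.02 and 0.59 with 0 called, among them Dap3, a small subunit GTP-binding protein, at 1.19 in WT saline (adjusted p = 0.0505). The 24 genes of mitoribosome assembly and rRNA modification had medians of 0.03, 0.02, 0.11 and -0.03, and 0 were called. Of 15 translation factors 1 was called, Gfm1, an elongation factor, which rose in KO saline (1.76 ± 0.35, adjusted p = 0.0103). The medians of that list were 0.07, 0.12, -0.01 and 0.03.

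The 17 mitochondrial aminoacyl-tRNA synthetases had medians of 0.50, -0.05, 0.60 and 0.30, and 1 was called, Nars2, which charges the asparagine tRNA and rose in KO saline (1.72 ± 0.39, adjusted p = 0.0222). Of the 14 genes of mitochondrial DNA transcription and maintenance 1 was called, the exonuclease gene Mgme1, which fell by 1.55 on the log2 scale in KO saline (adjusted p = 0.00602), and the medians were -0.26, -0.21, -0.16 and -0.18. Of 8 tested regulators of mitochondrial biogenesis, including Nrf1, Gabpa and Yy1, 0 were called, with medians of -0.06, -0.11, -0.47 and 0.06. These medians were unsteady: the -0.47 in WT AIBP was -0.08 without WT naive 3 and -0.15 without WT AIBP 7, each of the other 3 had either sign with 1 sample left out, and the synthetases' -0.05 in KO saline was 0.01 to 0.29 with any 1 sample left out.

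Import and respiratory chain genes were higher in part. Of 24 import genes 1, 4, 1 and 4 were higher and 0 lower in WT saline, KO saline, WT AIBP and KO AIBP, with Tomm7, a small subunit of the outer membrane translocase, called in all 4 (1.06 ± 0.19 in WT saline, adjusted p = 0.00781). The medians were 0.55, 0.70, 0.55 and 0.61. Of 76 nuclear respiratory chain subunits 31, 47, 13 and 38 were higher and 0 lower, with medians of 0.71, 0.95, 0.70 and 0.90. Among these, the complex III subunit gene Uqcr11 was at 128 ± 6.57 CPM in WT naive and 306 ± 55.4 CPM in WT cisplatin saline (SD, n = 3), a log2 fold change of 1.26 ± 0.18 (adjusted p = 0.00246).

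Of the 11 tested mitochondrially encoded protein genes, whose mRNAs this ribosome translates, 1, 1, 0 and 1 were higher, in each case mt-Nd1 (0.82, 1.34 and 1.06 in WT saline, KO saline and KO AIBP), with list medians of 0.27, 0.35, 0.10 and 0.45. Cytosolic ribosomal protein genes had larger values, with medians of 1.07, 1.00, 0.84 and 1.00, and 62, 59, 36 and 63 of 82 were higher and 0 lower. With WT cisplatin saline 4 as the only saline sample, 0 respiratory chain and 4 cytosolic ribosomal genes were called in WT.

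The counts of these lists moved with single samples too. Respiratory chain genes called in WT saline were 15, 19 and 12 without WT naive 1, 2 and 3, and 11 and 13 without WT cisplatin saline 5 and 6. Over all omissions of 1 sample they numbered 11 to 36. In WT AIBP they were 1, 2 and 2 without WT naive 1, 2 and 3 and 0 without either AIBP sample. In KO saline 28 were called without KO naive 2, and in KO AIBP 23, 19, 21 and 25 without KO naive 1, KO naive 2, AIBP 8 and AIBP 9. Over all omissions of 1 sample they numbered 28 to 47 in KO saline and 19 to 44 in KO AIBP. Cytosolic ribosomal genes numbered 39 without WT naive 1 and 37 without WT cisplatin saline 5 in WT saline, and in KO AIBP 34, 36 and 32 without KO naive 1, KO naive 2 and AIBP 8. Over all omissions of 1 sample they numbered 37 to 67 in WT saline and 32 to 65 in KO AIBP. In WT AIBP the number was 8, 20 and 13 without WT naive 1, 2 and 3 and 0 and 6 without AIBP 7 and 9. Import genes called were 1 in KO saline without KO naive 1, KO naive 2 or saline 5, 1 in KO AIBP without KO naive 1, KO naive 2, AIBP 8 or AIBP 9, 0 in WT AIBP without any 1 sample, and 2 and 5 in WT saline without WT naive 1 and saline 4. The mt-Nd1 call in WT saline was lost without WT naive 1, WT naive 3 or saline 5, that of Gfm1 without KO saline 5, and that of Nars2 without KO naive 2, KO naive 3 or KO saline 5.

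**Figure D5:**
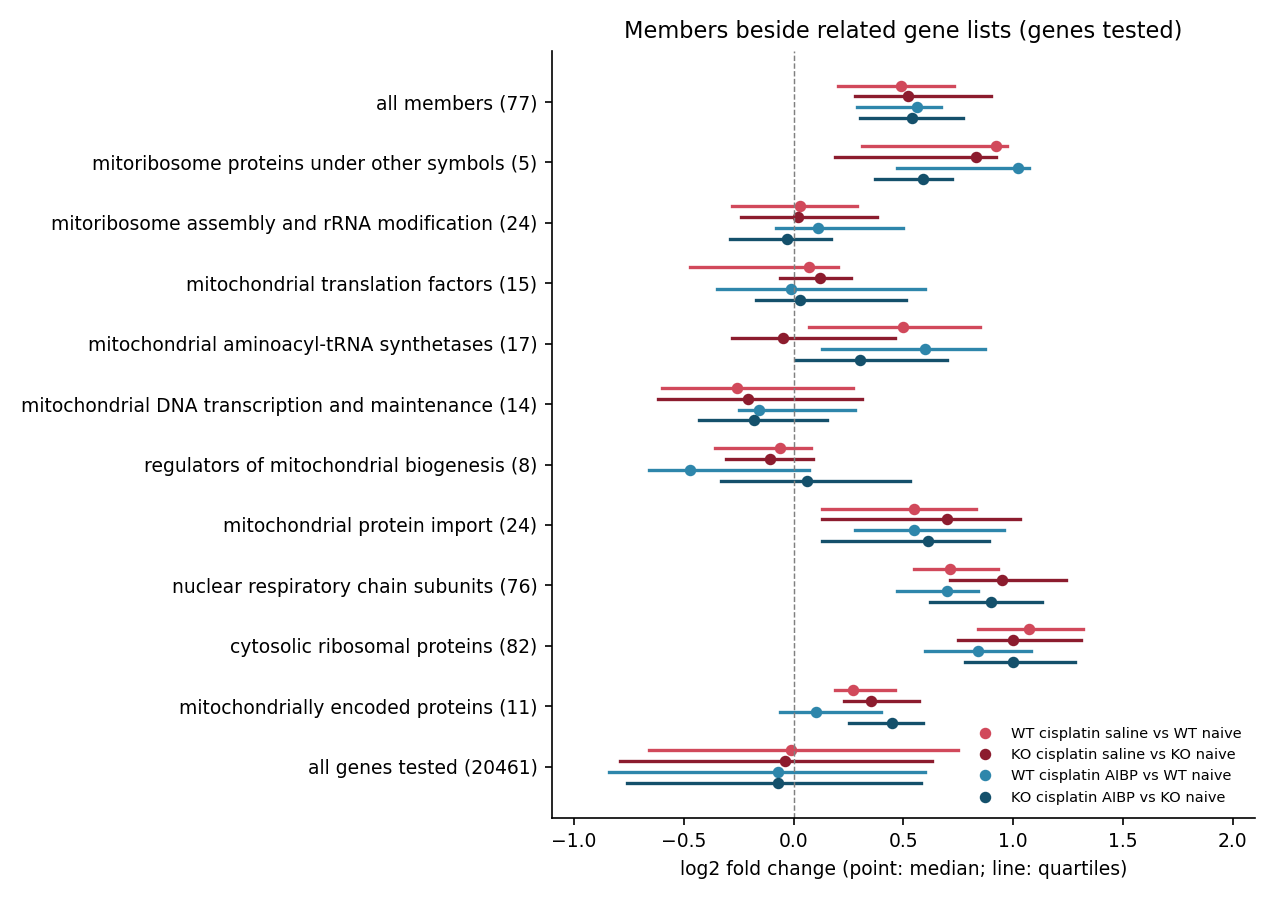
Median (point) and quartiles (line) of the log2 fold change in the 4 comparisons with naive, for the 77 members, 10 related gene lists and all genes tested, with the number of genes tested in brackets. Respiratory chain and cytosolic ribosomal genes lie to the right of the members, and assembly genes and translation factors lie near 0.

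Marker sums of monocytes, border macrophages and neutrophils followed the order of the members' levels in WT cisplatin saline, and only in part in KO. Those of T and NK cells, B cells, oligodendrocytes, astrocytes, neurons and endothelial cells did not follow it in WT cisplatin saline. Oligodendrocyte sums ran in the opposite order, at 598, 255 and 577 CPM in samples 4, 5 and 6. Astrocyte sums in these samples were 131, 196 and 295 CPM. The summed level of the 8 monocyte markers was 371 to 650 CPM in WT naive and 499 to 757 CPM in KO naive, with 611, 2540 and 1800 CPM for samples 4, 5 and 6 of WT cisplatin saline, 1540 to 1820 CPM in KO cisplatin saline, 669 and 801 CPM in WT cisplatin AIBP and 813, 1560 and 936 CPM in KO cisplatin AIBP. Of these markers 0, 1, 0 and 1 were called higher in WT saline, KO saline, WT AIBP and KO AIBP against naive. Lyz2 and Fn1, which activated microglia can also express, made up most of the sum. Ccr2, a defining monocyte receptor, reached 95.3 and 62.8 CPM in samples 5 and 6 of WT saline and lay between 0.182 and 10.2 CPM in every other sample, KO cisplatin saline included. Chil3, another gene of the list, was at 116, 106 and 76.9 CPM in KO cisplatin saline, 13.3, 102 and 15.7 CPM in KO cisplatin AIBP, 49.4 and 44.7 CPM in WT saline 5 and 6, and at most 5.81 CPM in the other samples. S100a4 was at or near 0 in most samples, with at most 1.24 CPM. The WT saline sample with the lowest monocyte sum, 4, was also the one with the lowest members. In WT cisplatin AIBP the median member stood 0.53 and 0.55 above WT naive, at monocyte sums of 801 and 669 CPM. Border macrophage markers (7 genes) summed to 0.667, 150 and 98.4 CPM and neutrophil markers (7 genes) to 0.0381, 22.9 and 14.5 CPM in WT cisplatin saline 4, 5 and 6, in the same order of samples as the members. In the other samples the border macrophage sum was 0.142 to 74.1 CPM, highest in KO cisplatin AIBP 8, and the neutrophil sum 0 to 5.99 CPM, highest in KO cisplatin saline 5. The part of these cells in the members' levels was not tested.

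Short transcripts had higher values after cisplatin than longer ones, and the members are shorter than most genes, with a median transcript of 1339 bases against 2242.5 for all genes tested. The 22 members under 1000 bases had medians of 0.63, 0.72, 0.59 and 0.67, and the other 55 had 0.46, 0.44, 0.53 and 0.42. Among all genes at 10 CPM or more, the 573 under 1000 bases had medians of 0.38, 0.50, 0.34 and 0.49 and the rest -0.11, -0.06, -0.08 and -0.07. The 573 include short members and genes of the respiratory chain and cytosolic ribosomal lists (median transcripts of 849.5 and 855 bases). No median was taken without these. With a trend on exon length removed in each sample, 6, 13, 2 and 6 members were called higher, and the members' medians were 0.39, 0.48, 0.48 and 0.40. The share of all genes called under that correction is not given. Mrps21 lost its 3 calls under that correction, with values of 0.33, 0.23 and 0.22 in WT saline, KO saline and KO AIBP (adjusted p = 0.263, 0.416 and 0.447).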

How the data were processed

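STAR 2.6.0a, DESeq2, FastQC 0.11.17, MultiQC 1.7 and bcl2fastq, and the build GRCm38, are the tools named per the submitters' processing notes. No counting tool or strand setting is given in the sources used here. Deposited by the authors were raw counts of 53715 genes in 102 runs and a normalized table of 18856 genes, whose signal is the raw count divided by 1 size factor per run. Members were selected in the normalized table and tested on the deposited counts. The 6 runs of a numbered sample (3 technical libraries on 2 lanes) were summed, since they are not biological replicates. Members had a median log2 CPM SD of 0.463 among the technical libraries of a sample and 0.319 among samples of a group. The first is from single libraries scaled by total count, the second from sums of 3 libraries scaled by edgeR. The values are therefore not directly comparable.

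edgeR 4.0.16 (R 4.3.3) was used with TMM scaling, filterByExpr, a group means model over 17 samples and the two-sided quasi-likelihood test, with Benjamini-Hochberg adjustment over 20461 genes and a threshold of 0.05; it was tested on simulated data. DESeq2 1.42.0, limma 3.58.1, RLE scaling, no filter, a correction for exon length, leaving out samples and blocks were alternatives. Named were up to 12 called members per comparison by p, the 3 highest and lowest per length, the 3 first in each interaction and up to 4 called genes per list; sequences shown beyond Mrpl52 and genes named by range were chosen after their values were seen. Members and lists were chosen with earlier results of these data known.

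Samples of the genotypes share numbers, but same-numbered samples did not deviate together (Pearson r over genes from -0.201 to 0.184), so they were not paired.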

Additional observations from a re-analysis of the deposited data

How the results depend on the processing

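Whether members passed the test depended on the tool and on single samples. The direction of the calls and of the members' medians against naive did not. Under every alternative 0 members were called lower, and the 52 alternative medians in the 4 comparisons with naive ran from 0.15 to 0.72, all positive. In the order WT saline, KO saline, WT AIBP and KO AIBP against naive, where 4, 18, 2 and 6 were called, DESeq2 called 12, 27, 10 and 20, RLE scaling 6, 16, 2 and 6, no filter 4, 12, 1 and 6, and limma-voom over the 17 samples (added after seeing the data) 4, 19, 1 and 8. DESeq2 called 2 members in the cisplatin interaction. With the 51 libraries kept apart in limma-voom, the technical replicate number as a block gave 17, 28, 8 and 19 calls and the same fit without the number (also added) 17, 28, 8 and 19, the same counts. Both count 3 technical libraries of a sample as units. For these alternatives the share of all genes called by the same fit is not given. A larger count of members is therefore not read as a result about the members. With the sample number as a block between genotypes, 0 members were called. Leaving out 1 sample gave 0 to 12, 4 to 13, 0 and 1 to 15 calls, and 0 in every other comparison. Without WT cisplatin saline 5 and 6, 0 were called in WT and the median of AIBP against saline in WT was 0.43. Where an omission leaves 1 sample, it is assumed to vary like the other groups. The causes were not tested. Of 431 refits of named members, 100 lost their call, 2 gained one (Mrps9 and Mrpl33 in DESeq2) and 0 turned sign. As these members were picked for small p in the same data, that count of signs does not bear on the others.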
